A study of Mus musculus with 10 samples.

Results

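The 33 genes described here encode the enzymes of glycolysis, the transporters of glucose and lactate, and the factor, oxygen sensors and targets of the hypoxia-inducible factor (HIF) pathway. They were listed by name for these functions, out of 45321 genes in the deposited tables, and all 33 passed the filter on low counts that left 14417 genes for testing. The RNA came from splenic CD4 T cells of C57BL/6 mice, sorted as naive cells that carried CD62L and lacked CD69. Compound 10, by the labels an inhibitor of NFAT:AP-1, was given at 12.5 µM as a pretreatment of 1 h, and its vehicle was DMSO. NFAT is a calcium-regulated transcription factor that binds DNA together with AP-1, a dimer of Fos and Jun family proteins. Stimulation followed for 2 h, with 10 nM PMA, which activates protein kinase C, and 1 µM ionomycin, a calcium ionophore. Unstimulated cells spent these 2 h without PMA and ionomycin. The 4 groups were stimulated cells with Compound 10 (n = 3), stimulated vehicle cells (n = 2), unstimulated cells with Compound 10 (n = 2) and unstimulated vehicle cells (n = 3). The pair of drugs bypasses the T cell receptor. The labels do not say that libraries of a group came from separate mice or cultures, so p-values measure the spread between these libraries, which may be technical.

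Glycolysis splits glucose into pyruvate. Lactate dehydrogenase turns pyruvate into lactate, and pyruvate dehydrogenase kinases keep it out of the mitochondria by switching off pyruvate dehydrogenase. Naive T cells use little glucose and raise its uptake and glycolysis when they are activated. HIF is a DNA-binding pair of HIF-1α, encoded by Hif1a, and ARNT, which turns on many glycolytic genes, and its prolyl hydroxylases mark HIF-1α for degradation while oxygen is present.

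Sequences just upstream of 5 members are shown first, because these genes carry the main contrasts below: Hk2 was higher with Compound 10 with and without stimulation, Pgam1, Ldha and Hif1a were lower with it in stimulated cells, and Pdk2 moved in opposite directions in the 2 states. They are the 250 bases before the RefSeq start nearest to the start of the most abundant transcript, on GRCm38.p6, written 5′ to 3′ on the strand of the gene. The stretches are chr6:82774455-82774704 (minus strand) for Hk2, chr19:41911621-41911870 (plus) for Pgam1, chr7:46845554-46845803 (plus) for Ldha, chr11:95041372-95041621 (minus) for Pdk2 and chr12:73907617-73907866 (plus) for Hif1a. Capitals mark ACGTG, the core of the site that HIF binds, on either strand (written CACGT where it lies on the other strand).
Hk2: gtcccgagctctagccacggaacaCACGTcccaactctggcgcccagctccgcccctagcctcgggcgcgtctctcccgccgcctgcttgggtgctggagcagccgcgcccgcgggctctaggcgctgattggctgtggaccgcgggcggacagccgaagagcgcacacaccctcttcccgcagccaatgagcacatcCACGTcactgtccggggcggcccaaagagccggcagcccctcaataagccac
Pgam1: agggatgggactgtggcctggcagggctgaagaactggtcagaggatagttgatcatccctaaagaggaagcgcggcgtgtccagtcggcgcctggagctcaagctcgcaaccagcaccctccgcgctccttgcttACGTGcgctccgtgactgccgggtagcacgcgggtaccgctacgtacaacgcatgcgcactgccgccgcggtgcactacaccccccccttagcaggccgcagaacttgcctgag
Ldha: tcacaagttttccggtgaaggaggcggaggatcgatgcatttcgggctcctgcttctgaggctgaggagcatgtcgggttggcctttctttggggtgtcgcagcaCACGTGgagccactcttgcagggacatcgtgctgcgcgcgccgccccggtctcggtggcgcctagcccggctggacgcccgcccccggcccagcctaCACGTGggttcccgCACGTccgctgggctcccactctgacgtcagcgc
Pdk2: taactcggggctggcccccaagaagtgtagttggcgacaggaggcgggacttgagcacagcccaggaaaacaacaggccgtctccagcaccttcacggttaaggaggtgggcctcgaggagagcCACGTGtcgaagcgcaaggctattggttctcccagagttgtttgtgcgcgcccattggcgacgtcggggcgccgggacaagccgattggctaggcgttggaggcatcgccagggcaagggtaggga
Hif1a: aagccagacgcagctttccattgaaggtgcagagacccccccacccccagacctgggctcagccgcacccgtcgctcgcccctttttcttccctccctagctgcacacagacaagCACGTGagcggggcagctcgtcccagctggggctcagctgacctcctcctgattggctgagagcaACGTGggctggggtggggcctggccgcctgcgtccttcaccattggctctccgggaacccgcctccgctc

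ACGTG occurred 5 times upstream of Ldha, 3 times upstream of Hif1a, and 2 times each upstream of Hk2 and Pdk2, against 1 time upstream of Pgam1. A CACGTG, the E-box core that Myc and Max bind, holds ACGTG on both strands and so counts 2 times. Of the 33 members, 31 had a RefSeq promoter of 300 bases (250 before and 50 after the start). ACGTG was in 19 of these 31 promoters (61.3%), against 26.2% of the 9813 tested genes with a promoter. The variant GCGTG was in 58.1%, against 51.6% of tested genes, and CACGTG in 19.4%, against 10.3%. The AP-1 motif TGACTCA was in 1 member promoter, that of Aldoa (3.23%, against 3.29% of tested genes). The NFAT core GGAAA was in 51.6%, against 58.8%. All motifs were searched on both strands. ACGTG was thus more common in these promoters than in those of all tested genes, while TGACTCA and GGAAA were about as common or less so. The list was made to hold HIF targets, so the ACGTG excess may follow from that choice. The RefSeq start lay 2301 and 587 bases from the transcript start for Hk1 and Slc16a3, both with ACGTG, and 562 for Vegfa, without it. A match in this window is a string of letters and not a bound site.

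Libraries held 10694591 to 33486259 estimated counts. The deepest, unstimulated Compound 10 library 2 and unstimulated vehicle library 3, deviated from their groups together (r = 0.46 over genes). T cell identity genes summed to 2568 to 3800 CPM (counts scaled to library size, here to the plain total) and B cell markers to 3.2 to 11.8. Myeloid markers (11 genes, S100a9 at 0 in every library) summed to 17.5 to 20.9 in stimulated Compound 10, 22.5 to 29.5 in stimulated vehicle, 34.7 to 41.1 in unstimulated Compound 10 and 48.2 to 73.1 in unstimulated vehicle libraries. Memory or effector markers summed to 185 to 239, 243 to 281, 181 to 192 and 109 to 129 in the same order of groups. Platelet markers (4 genes) summed to 3.93 to 6.03, 3.84 to 6.01, 2.64 to 2.71 and 11.5 to 13.7, and NK cell markers (6 genes, Ncr1, Klra8 and Klra4 at 0) to 1.16 to 2.73, 2.82 to 5.8, 1.74 to 1.84 and 0.35 to 2.25. In unstimulated libraries, platelet, myeloid and erythroid markers were thus lower with Compound 10, without overlap of the groups. Memory or effector markers and T cell identity genes (3021 to 3169 against 2568 to 2721) were higher there, without overlap. In stimulated libraries, myeloid, memory or effector, NK cell and CD8 T cell markers (1.99 to 6.11 against 7.71 to 8.16) were lower with Compound 10, without overlap. CD8 T cell markers summed to 1.99 to 8.59, regulatory T cell markers to 36.2 to 58.6 and erythroid markers to at most 0.625. The part of these cells in the results was not tested, and in bulk RNA fewer cells of a type and less RNA per cell cannot be told apart.

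Stimulation under vehicle raised most of the module. Of the 33 members, 19 were higher and 4 lower in stimulated than in unstimulated vehicle cells at an adjusted p under 0.05 (edgeR's quasi-likelihood test, Benjamini-Hochberg over 14417 genes; 39% of all genes were called, 19.5% higher and 19.4% lower). Glycolytic enzymes, all 4 transporters, Hif1a, Egln3, Vegfa and P4ha1 were among the 19, and the 4 were Pdk1, Pdk2, Bnip3 and Bnip3l. The libraries of the groups did not overlap for 27 members (62.5% of all genes). The median log2 fold change was 0.77, against -0.06 over all genes.

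With Compound 10 present, 12 members were higher and 4 lower in stimulated than in unstimulated cells (26.5% of all genes called, 12.8% higher and 13.7% lower). The 12 were all among the 19 of the vehicle cells. The groups did not overlap for 26 members (50.4% of all genes), and the median was 0.46, against -0.01 over all genes. By library totals alone, without TMM scaling, the median of all genes moved to -0.83 under vehicle and -0.60 with Compound 10, and the split of members became 13 higher and 12 lower under vehicle and 6 and 10 with Compound 10. Relative to those medians, the members' median stood at 0.82 and 0.47, close to the 0.83 and 0.47 with TMM.

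In stimulated cells, Compound 10 lowered 11 members and raised 5 relative to vehicle (23.2% of all genes called, 12.8% lower and 10.4% higher). The 11 were Hk1, Pfkfb3, Aldoa, Gapdh, Pgam1, Pkm, Ldha, Slc2a1, Hif1a, Egln3 and P4ha1, each of which stimulation had raised under vehicle. The 5 were Hk2, Pfkfb4, Pdk1, Pdk2 and Bnip3l, and of these stimulation had lowered Pdk1, Pdk2 and Bnip3l under vehicle. Both contrasts use the stimulated vehicle libraries, so these counts are not independent of each other. The groups did not overlap for 24 members (54.6% of all genes). The members' median of -0.07 lay near that of all genes, 0.04, with changes in both directions. Leaving out stimulated vehicle library 1 or 2 left 6 or 11 members called. The group then has 1 library, which is assumed to vary like the libraries of the other groups. All 16 values kept their sign, and their median shift was 0.06 on the log2 scale either way (largest 0.41 without library 1 and 0.76 without library 2, both for Pdk2).

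In unstimulated cells, Compound 10 raised 5 members, Hk2, Pfkfb4, Slc16a1, Egln3 and Vegfa, and lowered 1, Pdk2 (8.43% of all genes called, 4.65% higher and 3.78% lower). The groups did not overlap for 15 members (37.9% of all genes). Leaving out any single library left 2 to 4 members called. The split was 2 higher and 1 lower by library totals alone and 4 and 0 with average transcript length offsets. The effect of stimulation itself differed with Compound 10 for 5 members, as tested by the interaction (6.63% of all genes called, 2.55% higher and 4.08% lower). It was smaller or turned round for Pgam1, Hif1a, Pfkfb3 and Egln3, and less negative for Pdk2. Leaving out either stimulated vehicle library ended the calls of Pfkfb3, Hif1a and Egln3, whose values were -1.22, -1.19 and -3.18 without library 1 and -1.29, -1.15 and -2.95 without library 2. With upper-quartile factors, 2 interactions were higher and 4 lower.

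**Figure D1:**
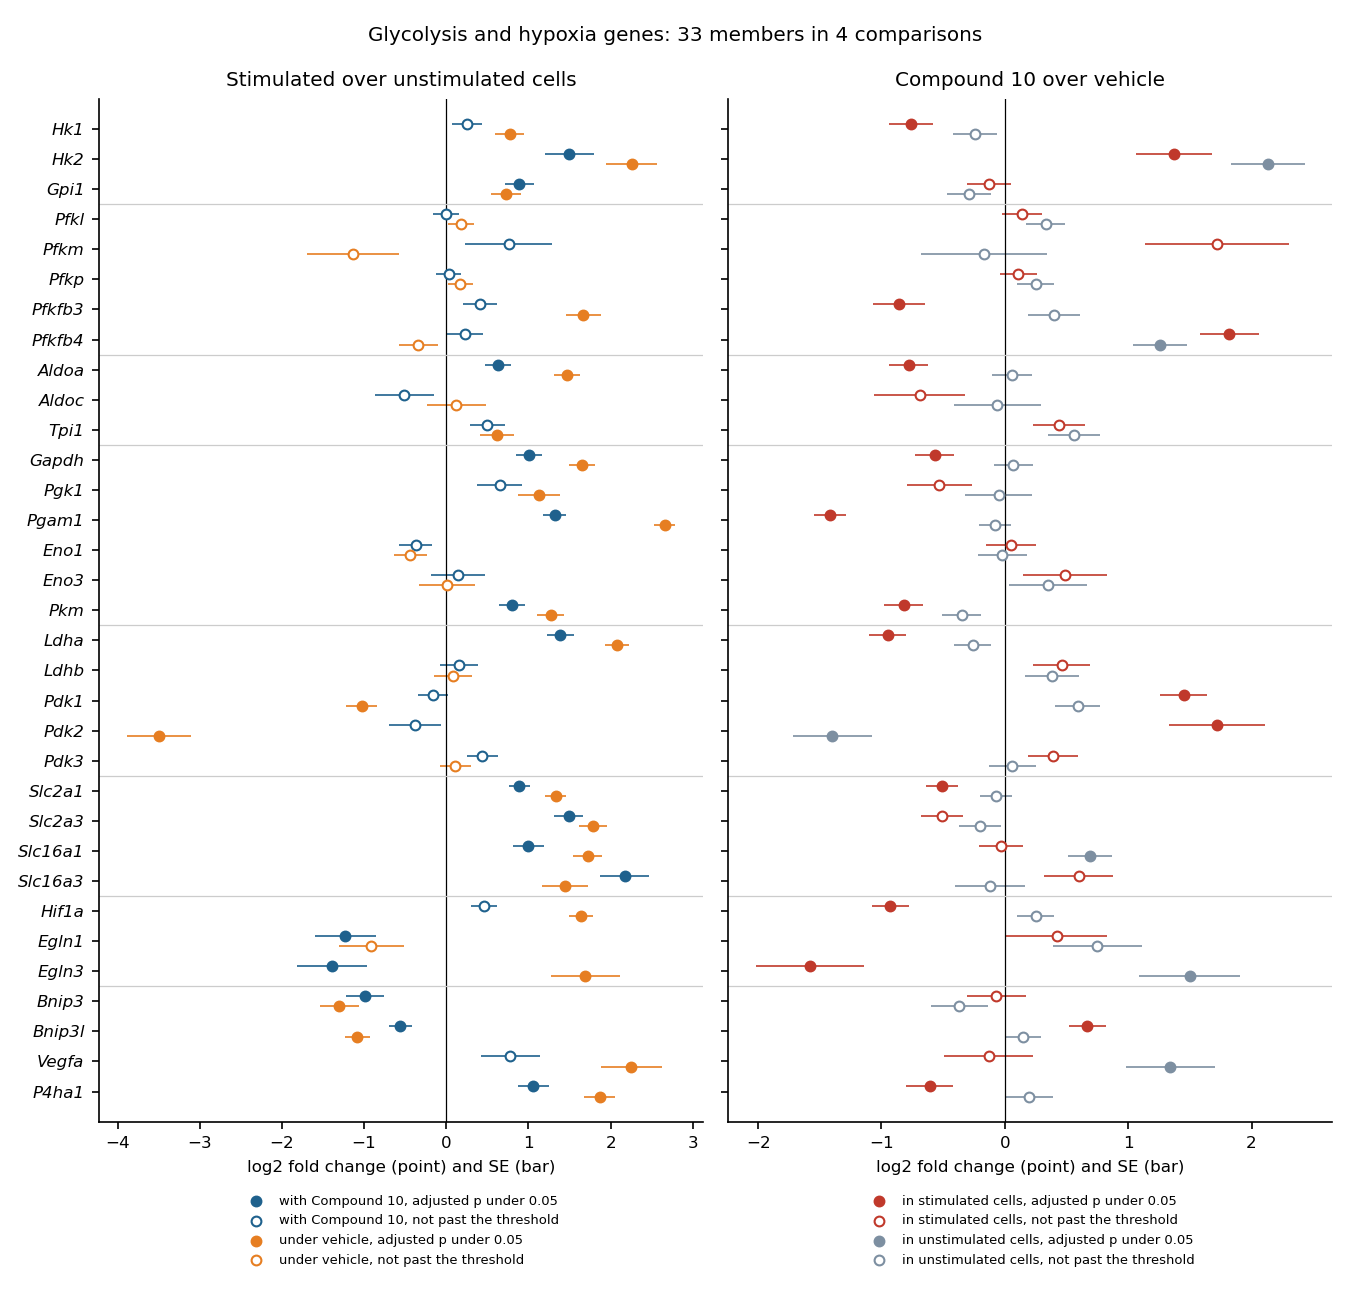
Log2 fold change (x axis, point) with its SE (bar) for the 33 members, ordered by step, for stimulation with Compound 10 and under vehicle (left) and for Compound 10 relative to DMSO, each state by itself (right). Filled points have an adjusted p under 0.05: 16 and 23 members on the left, 16 and 6 on the right.

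Levels per length, as TPM (corrected for transcript length) summed over the members of a step, spread over about 2 orders of magnitude. In stimulated vehicle cells lactate dehydrogenase (2421 ± 7.96 TPM, SD, n = 2), pyruvate kinase (2040 ± 19.1), glyceraldehyde phosphate dehydrogenase (1686 ± 166) and aldolase (1414 ± 27.7) stood highest. Phosphoglycerate mutase had 325 ± 9.89, and hexokinase, which commits glucose to the cell, 52.9 ± 3.62. In stimulated Compound 10 cells the same 4 steps stood highest, at 1396 ± 117, 1226 ± 167, 1189 ± 98.4 and 890 ± 112 (n = 3), with phosphoglycerate mutase at 129 ± 2.92. Each of these 5 steps was below every stimulated vehicle library in all 3 Compound 10 libraries. The pyruvate dehydrogenase kinases went the other way, at 117 ± 7.59 in stimulated Compound 10 cells and 49.3 ± 8.27 in stimulated vehicle cells. TPM were not TMM-scaled. They order genes within a library, and their differences between groups are descriptions that depend on the scale. Fold changes below come from counts.

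**Figure D2:**
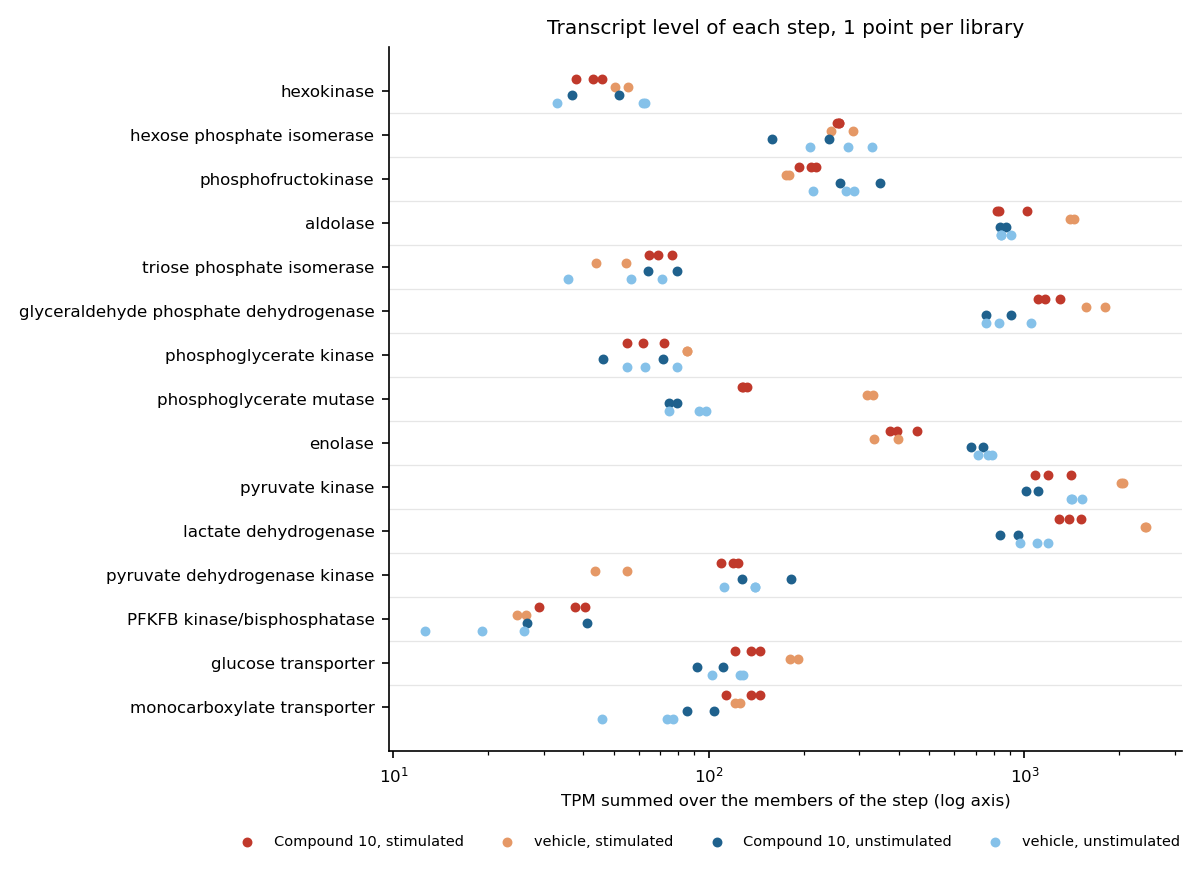
TPM summed over the members of each step (x axis, log scale), 1 point per library, with the groups from top to bottom in the order of the legend. The stimulated Compound 10 libraries lie between 127 and 132 TPM at phosphoglycerate mutase and the stimulated vehicle libraries between 318 and 332.

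Hexokinases trap glucose in the cell as glucose 6-phosphate. Hk2, the inducible isozyme, had 19.1, 22.6 and 18.7 TMM-scaled CPM in stimulated Compound 10 cells, 5.67 and 9.78 in stimulated vehicle cells, 7.28 and 6.98 in unstimulated Compound 10 cells, and 1.48, 2.19 and 1.23 in unstimulated vehicle cells. All Compound 10 libraries were above all vehicle libraries of the same state. Hk2 was 2.58-fold higher with Compound 10 in stimulated cells (log2 1.37 ± 0.31 SE, adjusted p = 0.00777) and 4.38-fold higher in unstimulated cells (2.13 ± 0.30, adjusted p = 0.00325). Stimulation raised it by 2.26 ± 0.31 under vehicle and 1.50 ± 0.30 with Compound 10, on the log2 scale. With length offsets, Hk2 stood at 1.49 for Compound 10 in unstimulated cells and 1.23 for stimulation under vehicle, both still called. Hk1, the constitutive isozyme, showed the reverse with the compound: it had 99.3, 87.8 and 91.5 CPM in stimulated Compound 10 cells and 166 and 149 in stimulated vehicle cells (-0.76 ± 0.18, adjusted p = 0.00919). Without stimulated vehicle library 1, the adjusted p for Compound 10 in stimulated cells was 0.0989 for Hk2 and 0.0951 for Hk1. Stimulation raised Hk1 under vehicle by 0.77 ± 0.18 (adjusted p = 0.00472, and 0.0584 without that library), a value that was -0.01 by library totals alone. Hk2 made up 23.1% ± 4.47 of the hexokinase TPM in stimulated Compound 10 cells and 5.94% ± 0.369 in stimulated vehicle cells.

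Gpi1, which interconverts glucose and fructose 6-phosphates, had 459, 414 and 461 CPM in stimulated Compound 10 cells, 530 and 441 in stimulated vehicle cells, 274 and 205 in unstimulated Compound 10 cells and 346, 282 and 252 in unstimulated vehicle cells. It was higher with stimulation under both conditions, by 0.73 ± 0.18 under vehicle (adjusted p = 0.00698; -0.05 by library totals alone) and 0.89 ± 0.18 with Compound 10 (adjusted p = 0.00441). Without stimulated vehicle library 1 the first had an adjusted p of 0.097, and without unstimulated Compound 10 library 2 the second had 0.0727. The stimulated groups overlapped, and the difference with the compound was -0.13 ± 0.18.

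Phosphofructokinase is the main control point of glycolysis. Its subunit genes Pfkl, Pfkm and Pfkp were not called in any comparison of the main edgeR fit of all 10 libraries. Pfkp held 65% to 70.7% and Pfkl 28% to 34.2% of the phosphofructokinase TPM in every library. Pfkm, the muscle isozyme, was low, with 7.85, 8.74 and 7.25 CPM in stimulated Compound 10 cells and 0.644 and 3.98 in stimulated vehicle cells (1.72 ± 0.58, adjusted p = 0.0512). The 2 vehicle libraries lay far apart from each other, and the value was 1.00 (adjusted p = 0.257) without stimulated vehicle library 1 and 3.62 (adjusted p = 0.00849) without library 2. Of 21 alternatives, 12 called Pfkm higher with Compound 10 in stimulated cells, among them DESeq2 (adjusted p = 0.00896), no low count filter (0.000641) and the index run as a term (0.00678). Pfkl and Pfkp under vehicle differed by 0.18 and 0.17 with stimulation. By library totals alone both were called lower, at -0.60 and -0.61 (adjusted p = 0.00719 and 0.00851). With Compound 10 that setting gave -0.60 and -0.56 for stimulation (adjusted p = 0.00843 and 0.0155).

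The kinase/bisphosphatases that set the phosphofructokinase activator fructose 2,6-bisphosphate changed in opposite directions with the compound in stimulated cells. Pfkfb3 had 30.5, 33.2 and 25.5 CPM in stimulated Compound 10 cells, 55.5 and 52.7 in stimulated vehicle cells, 21.7 and 23 in unstimulated Compound 10 cells and 14.7, 21.9 and 14.4 in unstimulated vehicle cells. The stimulated vehicle libraries stood above all others. Pfkfb4 had 42.6, 35.2 and 36.5 CPM in stimulated Compound 10 cells, 10.2 and 11.3 in stimulated vehicle cells, 36.7 and 28.4 in unstimulated Compound 10 cells and 16.5, 14.3 and 10.2 in unstimulated vehicle cells. Here every Compound 10 library was above every vehicle library, whatever the stimulation. Compound 10 changed Pfkfb3 by -0.86 ± 0.21 (adjusted p = 0.0116) and Pfkfb4 by 1.82 ± 0.24 (adjusted p = 0.000401) in stimulated cells, and raised Pfkfb4 by 1.26 ± 0.22 (adjusted p = 0.00757) in unstimulated cells. For Pfkfb3 the difference in unstimulated cells was 0.40 (adjusted p = 0.28). Stimulation raised Pfkfb3 under vehicle by 1.67 ± 0.21 (adjusted p = 8.97e-05), and its interaction was -1.26 ± 0.30 (adjusted p = 0.0299). That interaction was -1.09 (adjusted p = 0.165) with length offsets and -1.06 (adjusted p = 0.0787) by library totals alone. The interaction missed the threshold without any one of 7 libraries, with adjusted p from 0.0541 (without unstimulated vehicle library 1) to 0.132 (without stimulated vehicle library 1), and the others were both unstimulated Compound 10 libraries, stimulated vehicle library 2 and stimulated Compound 10 libraries 1 and 3. For Pfkfb3 in stimulated cells, the adjusted p was 0.0887 and 0.065 without stimulated vehicle libraries 1 and 2. Pfkfb4 made up 65.5% ± 4.62 of the TPM of the pair in stimulated Compound 10 cells and 23.1% ± 3.09 in stimulated vehicle cells.

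**Figure D3:**
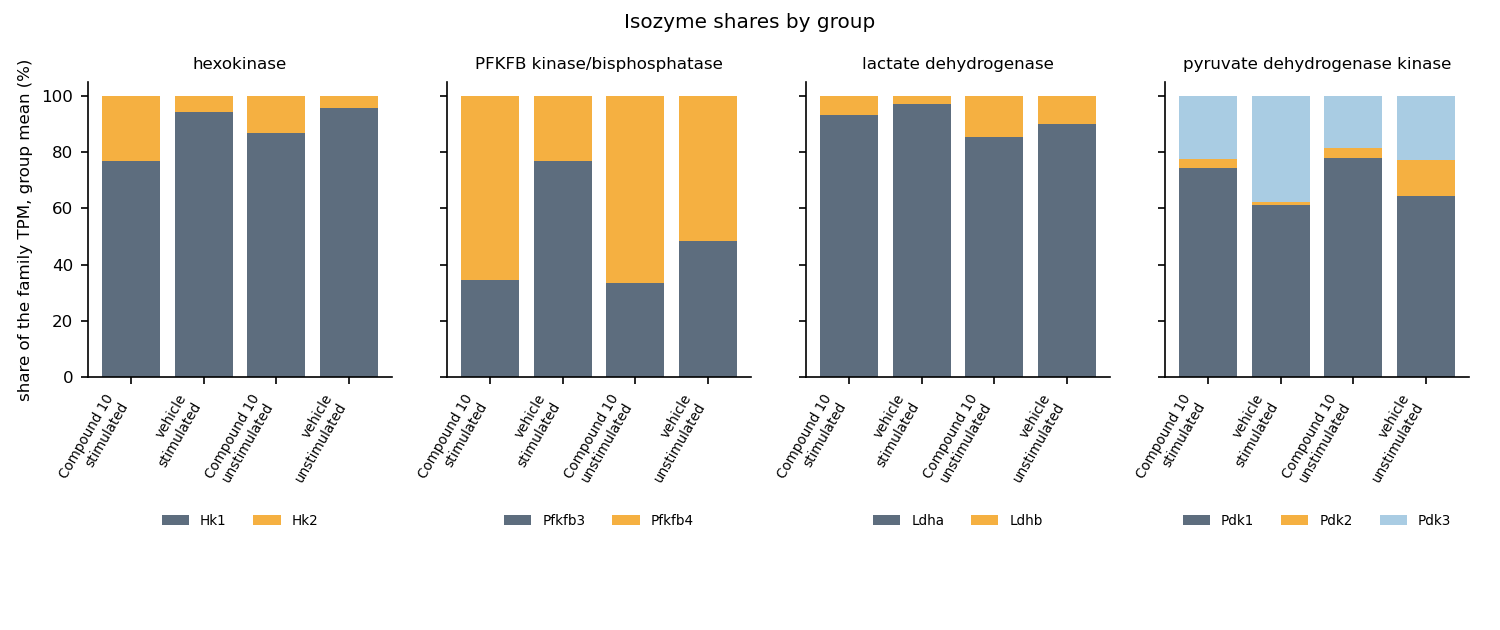
Share of the summed TPM of a family (y axis, %, group means) held by each isozyme, for hexokinases, PFKFB kinase/bisphosphatases, lactate dehydrogenases and pyruvate dehydrogenase kinases. Hk2 and Pfkfb4 hold 23.1% and 65.5% in stimulated Compound 10 cells and 5.94% and 23.1% in stimulated vehicle cells.

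Aldolase splits the sugar into triose phosphates, and nearly all aldolase TPM came from Aldoa (at least 99.5% in each library). Aldoa had 975, 918 and 1246 CPM in stimulated Compound 10 cells, 1852 and 1730 in stimulated vehicle cells, 642 and 710 in unstimulated Compound 10 cells and 657, 584 and 703 in unstimulated vehicle cells. The unstimulated groups overlapped, and the stimulated groups did not. Stimulation raised Aldoa by 1.47 ± 0.16 under vehicle (adjusted p = 3.12e-05) and by 0.63 ± 0.16 with Compound 10 (adjusted p = 0.0151), and Compound 10 lowered it in stimulated cells by -0.78 ± 0.16 (adjusted p = 0.00475). Its interaction was -0.84 ± 0.23 (adjusted p = 0.0502). Of 20 alternatives run for it, 6 called this interaction, among them DESeq2 (adjusted p = 0.0124) and the index run as a term (0.00339). Without stimulated vehicle library 1 the compound's adjusted p was 0.0547, and without unstimulated Compound 10 library 1 or 2 that of stimulation with Compound 10 was 0.0924 or 0.0646. The Aldoa-202 transcript took 16.8% to 23.1% of the gene's counts in stimulated Compound 10 cells, 25.4% to 29.5% in stimulated vehicle cells, 8.25% to 10.5% in unstimulated Compound 10 cells and 8.65% to 11.2% in unstimulated vehicle cells. Aldoc, the brain isozyme, stayed at 1.55 to 3.73 CPM and was not called in the main fit.

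Tpi1, which interconverts the triose phosphates, was higher with stimulation under vehicle (0.62 ± 0.21, adjusted p = 0.0358), at 72.9 and 62.1 CPM in stimulated and 55.7, 43.2 and 32.8 in unstimulated vehicle cells. This call was lost without any one of 4 libraries (adjusted p 0.0877 and 0.0765 without unstimulated vehicle libraries 2 and 3, and 0.236 and 0.0824 without stimulated vehicle libraries 1 and 2), and the value was -0.16 by library totals alone. Compound 10 did not change it past the threshold.

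Pgam1, phosphoglycerate mutase, gave the clearest change of the module. It had 205, 195 and 211 CPM in stimulated Compound 10 cells, 571 and 522 in stimulated vehicle cells, 78.7 and 84.1 in unstimulated Compound 10 cells and 93.3, 84.7 and 81 in unstimulated vehicle cells. The stimulated groups lay far apart and the unstimulated groups overlapped. Stimulation raised it 6.33-fold under vehicle (2.66 ± 0.13, adjusted p = 1.02e-07) and 2.5-fold with Compound 10 (1.32 ± 0.14, adjusted p = 6.33e-05). The compound lowered it 2.68-fold in stimulated cells (-1.42 ± 0.13, adjusted p = 6.97e-05), with -1.47 and -1.42 between libraries of the same index run. The interaction of -1.34 ± 0.19 (adjusted p = 0.00273) kept its call under every alternative run, and leaving out a library gave -1.42 to -1.27. Compound 10 in unstimulated cells gave -0.08 ± 0.13. Near-identical copies of Pgam1 took 3.1% to 18.6% of its summed counts, with the lowest shares in the 2 deepest unstimulated libraries.

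Gapdh and Pgk1, which make the first ATP and NADH of the pathway, have near-identical copies. The share of counts given to the copies differed between libraries, and the cause was not tested. Copies took 9.47% to 43.7% of the summed Gapdh counts and 4.36% to 47.4% of those of Pgk1, and the lowest shares were in the 2 deepest unstimulated libraries. Gapdh had 1231, 1006 and 1105 CPM in stimulated Compound 10 cells, 1733 and 1571 in stimulated vehicle cells, 518 and 588 in unstimulated Compound 10 cells and 571, 445 and 564 in unstimulated vehicle cells. Stimulation raised Gapdh 3.14-fold under vehicle (1.65 ± 0.16, adjusted p = 1.16e-05) and 2.02-fold with Compound 10 (1.01 ± 0.16, adjusted p = 0.00103). Compound 10 lowered it in stimulated cells by -0.57 ± 0.16 (adjusted p = 0.0217), but with the copies added the value was -0.59 with an adjusted p of 0.0618. The adjusted p was 0.169 and 0.0792 without stimulated vehicle libraries 1 and 2, and 0.0764 and 0.0502 without stimulated Compound 10 libraries 2 and 3.

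Pgk1 had 117, 90.2 and 90 CPM in stimulated Compound 10 cells, 147 and 139 in stimulated vehicle cells, 45.3 and 80.1 in unstimulated Compound 10 cells and 59.5, 49.9 and 85.6 in unstimulated vehicle cells. The high unstimulated value of each group is that of its deepest library. Stimulation raised it under vehicle by 1.13 ± 0.26 (adjusted p = 0.00516). With Compound 10 the difference was 0.65 ± 0.27 (adjusted p = 0.102), and Compound 10 in stimulated cells gave -0.53 ± 0.26 (adjusted p = 0.178). Both passed with the copies added (0.62, adjusted p = 0.00966, and -0.63, adjusted p = 0.00888), and also without the 2 deepest unstimulated libraries (1.09, adjusted p = 0.00288, and -0.54, adjusted p = 0.0193).

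Enolase makes phosphoenolpyruvate. Eno1, the main isozyme with at least 98% of the enolase TPM in each library, had 464, 478 and 625 CPM in stimulated Compound 10 cells, 462 and 548 in stimulated vehicle cells, 609 and 739 in unstimulated Compound 10 cells and 593, 608 and 851 in unstimulated vehicle cells. Near-identical copies took 0.0194% to 9.03% of its summed counts, with the lowest shares in the 2 deepest unstimulated libraries. Stimulation gave -0.44 ± 0.20 under vehicle (adjusted p = 0.113) and -0.37 ± 0.20 with Compound 10 (adjusted p = 0.209), and Compound 10 in stimulated cells gave 0.05 ± 0.20. By library totals alone stimulation was called lower in both, at -1.21 and -0.95 (adjusted p = 0.000493 and 0.00238). It was also called under vehicle with no low count filter (-0.54, adjusted p = 0.0235), and with Compound 10 under the replicate block (-0.53, adjusted p = 0.00826). Eno3, the muscle isozyme, stayed at 3.03 to 6.3 CPM and was not called.

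Pkm, pyruvate kinase, had 2397, 2399 and 3181 CPM in stimulated Compound 10 cells, 4775 and 4624 in stimulated vehicle cells, 1499 and 1558 in unstimulated Compound 10 cells and 1983, 1754 and 2098 in unstimulated vehicle cells. Each Compound 10 group lay below its vehicle group. Compound 10 lowered it in stimulated cells by -0.82 ± 0.16 (adjusted p = 0.00301), with values of -0.97 to -0.75 when a library was left out. In unstimulated cells the difference was -0.35 ± 0.16 (adjusted p = 0.212). Stimulation raised Pkm by 1.27 ± 0.16 under vehicle (adjusted p = 7.49e-05) and 0.80 ± 0.16 with Compound 10 (adjusted p = 0.00385). The transcript Pkm-201 took 92% to 93.2% of its counts in stimulated Compound 10 cells and 97.2% to 97.8% in stimulated vehicle cells.

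Ldha, the lactate dehydrogenase subunit of glycolytic cells, had 1623, 1590 and 1933 CPM in stimulated Compound 10 cells, 3393 and 3225 in stimulated vehicle cells, 696 and 612 in unstimulated Compound 10 cells and 874, 755 and 718 in unstimulated vehicle cells. The stimulated Compound 10 libraries lay between the stimulated vehicle libraries and both unstimulated groups. Stimulation raised Ldha 4.23-fold under vehicle (2.08 ± 0.15, adjusted p = 1.28e-06) and 2.62-fold with Compound 10 (1.39 ± 0.16, adjusted p = 0.0001). In stimulated cells Compound 10 lowered it 1.93-fold (-0.95 ± 0.15, adjusted p = 0.000962), a call that held under every alternative run. The interaction was -0.69 ± 0.21 (adjusted p = 0.0738). Ldhb, the subunit of oxidative tissues, was not called in any comparison of the main fit (0.46 ± 0.23 for Compound 10 in stimulated cells). Stimulation under vehicle gave 0.08 for Ldhb, and -0.69 by library totals alone (adjusted p = 0.0242). The Ldhb share of the lactate dehydrogenase TPM was 6.97% ± 0.505 in stimulated Compound 10 cells and 2.75% ± 0.458 in stimulated vehicle cells.

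**Figure D4:**
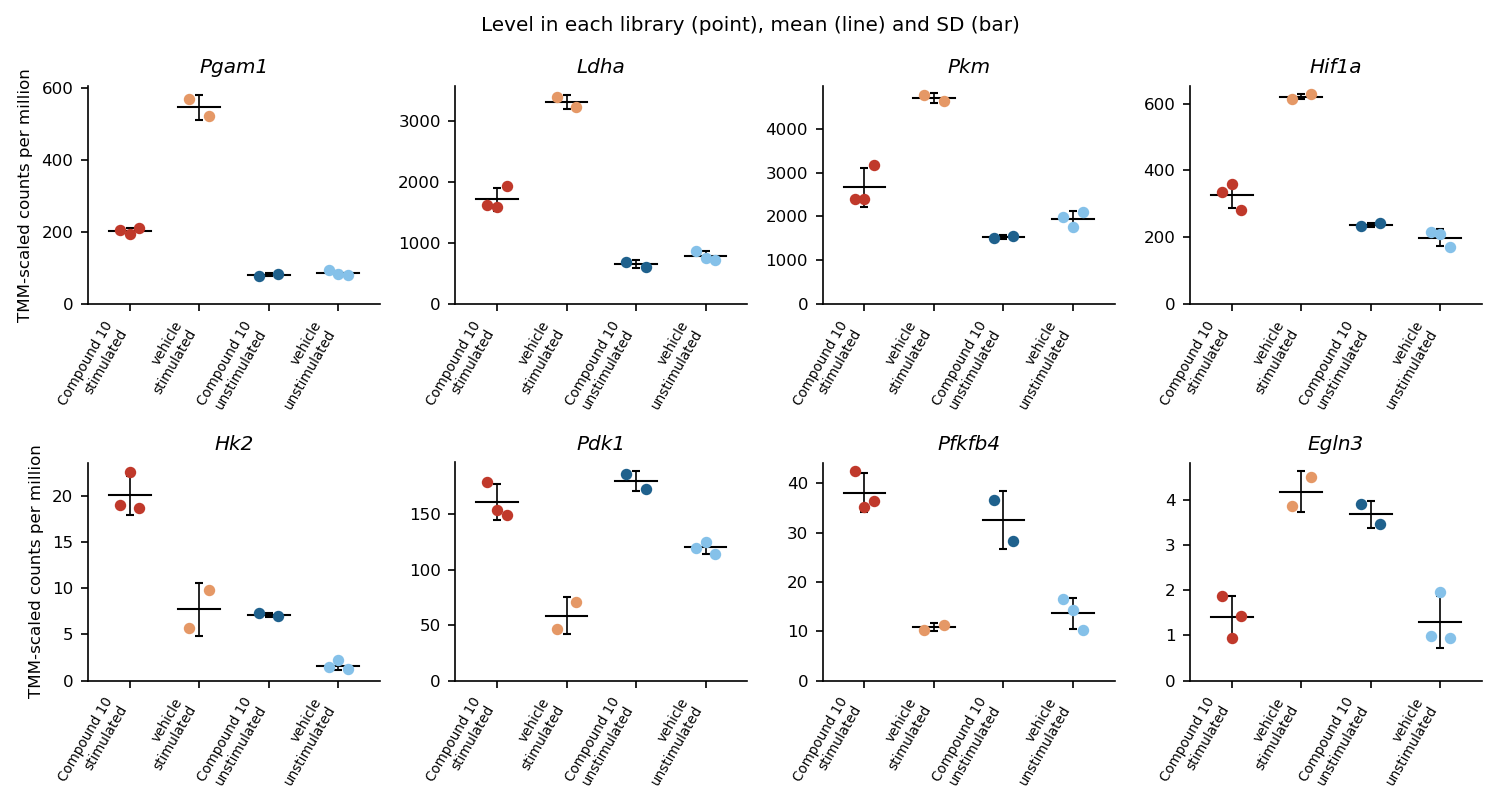
TMM-scaled CPM (y axis, from 0) of 8 members in each library (points), with the group mean (line) and SD (bar). Pgam1, Ldha, Pkm and Hif1a are highest in the stimulated vehicle libraries, Hk2 and Pfkfb4 are higher with Compound 10 in both states, and Egln3 is high in stimulated vehicle (3.86 and 4.5) and unstimulated Compound 10 libraries (3.9 and 3.46).

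Pdk1 and Pdk2, pyruvate dehydrogenase kinases, were lower with stimulation under vehicle and higher with Compound 10 in stimulated cells. Pdk1 had 179, 154 and 149 CPM in stimulated Compound 10 cells, 46.6 and 70.6 in stimulated vehicle cells, 186 and 173 in unstimulated Compound 10 cells and 119, 125 and 114 in unstimulated vehicle cells. The stimulated vehicle libraries were the lowest of all. Stimulation lowered Pdk1 under vehicle (-1.03 ± 0.19, adjusted p = 0.0011), and with Compound 10 the difference was -0.16 ± 0.18. Compound 10 raised it 2.73-fold in stimulated cells (1.45 ± 0.19, adjusted p = 0.000342), and in unstimulated cells gave 0.59 ± 0.18 (adjusted p = 0.0639). The interaction was 0.86 ± 0.26 (adjusted p = 0.0684). It was called with DESeq2 (adjusted p = 0.0205) and with the index run as a term (0.0218), among other alternatives. At least 48.1% of Pdk1 counts in each library belonged to Pdk1-208, a transcript annotated as processed and not as protein-coding, with 65.4% to 70.3% in stimulated Compound 10 cells and 53.6% to 59.8% in stimulated vehicle cells.

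Pdk2 was less abundant, with 4.75, 4.11 and 4.07 CPM in stimulated Compound 10 cells, 0.773 and 1.73 in stimulated vehicle cells, 5.62 and 5.57 in unstimulated Compound 10 cells and 17.4, 16.7 and 10.2 in unstimulated vehicle cells. Both Compound 10 groups lay between the vehicle groups. Stimulation lowered it 11.3-fold under vehicle (-3.50 ± 0.39, adjusted p = 4.03e-05), and with Compound 10 the difference was -0.38 ± 0.32. The stimulated vehicle libraries held 6 and 20 counts, and the value was -3.09 without stimulated vehicle library 1 and -4.26 without library 2. The interaction was 3.12 ± 0.51 (adjusted p = 0.00623) and kept its call under every alternative run, at 2.71 and 3.88 without these libraries. Compound 10 raised Pdk2 in stimulated cells (1.72 ± 0.39, adjusted p = 0.00793, and 0.0848 without stimulated vehicle library 1; 2.48 without library 2) and lowered it in unstimulated cells (-1.40 ± 0.32, adjusted p = 0.0258). The call in unstimulated cells was lost without unstimulated vehicle library 1 or 2 (adjusted p 0.0758 and 0.0751) and without unstimulated Compound 10 library 1 or 2 (0.0891 and 0.136). Pdk3 was not called in any comparison of the main fit, and its 0.11 for stimulation under vehicle was -0.67 by library totals alone (adjusted p = 0.0183).

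All 4 transporter genes rose with stimulation in both conditions. Slc2a1, the widely used glucose transporter GLUT1, had 219, 232 and 241 CPM in stimulated Compound 10 cells, 319 and 339 in stimulated vehicle cells, 122 and 126 in unstimulated Compound 10 cells and 140, 126 and 127 in unstimulated vehicle cells. The stimulated groups did not overlap. Stimulation raised Slc2a1 by 1.33 ± 0.13 under vehicle (adjusted p = 1.35e-05) and 0.89 ± 0.13 with Compound 10 (adjusted p = 0.000641). Compound 10 lowered it in stimulated cells by -0.51 ± 0.13 (adjusted p = 0.0141, and 0.0753, 0.134 and 0.0507 without stimulated vehicle library 1, stimulated vehicle library 2 and stimulated Compound 10 library 1). Slc2a3, the high-affinity GLUT3, had 79.4, 99.2 and 82.1 CPM in stimulated Compound 10 cells, 113 and 134 in stimulated vehicle cells, 31.1 and 30.8 in unstimulated Compound 10 cells and 34.1, 31.8 and 41.1 in unstimulated vehicle cells. It rose with stimulation by 1.79 ± 0.17 under vehicle and 1.49 ± 0.18 with Compound 10 (adjusted p = 1.12e-05 and 0.000162). Its difference with Compound 10 in stimulated cells, -0.51 ± 0.17, was the size of that of Slc2a1 and just missed the threshold (adjusted p = 0.0511). Of 21 alternatives, 8 called Slc2a3 lower there, among them DESeq2 (adjusted p = 0.0185) and the index run as a term (0.0198).

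The lactate carriers were not called lower with Compound 10. Slc16a1, the monocarboxylate transporter MCT1, had 573, 488 and 437 CPM in stimulated Compound 10 cells, 532 and 491 in stimulated vehicle cells, 257 and 241 in unstimulated Compound 10 cells and 173, 171 and 122 in unstimulated vehicle cells. The stimulated groups overlapped (-0.03 ± 0.18), and the unstimulated ones did not. Stimulation raised it by 1.72 ± 0.18 under vehicle (adjusted p = 2.25e-05) and 1.00 ± 0.19 with Compound 10 (adjusted p = 0.00236). Compound 10 raised it in unstimulated cells by 0.69 ± 0.18 (adjusted p = 0.0377). That call was lost without any one of 8 libraries, all but stimulated Compound 10 libraries 1 and 3, with adjusted p from 0.0526 to 0.135. Slc16a3, the lactate exporter MCT4, had 13.9, 14.7 and 18.6 CPM in stimulated Compound 10 cells, 11.3 and 9.43 in stimulated vehicle cells, 3.77 and 3.26 in unstimulated Compound 10 cells and 3.4, 5.08 and 3.01 in unstimulated vehicle cells. Stimulation raised it by 1.44 ± 0.28 under vehicle (adjusted p = 0.0017) and 2.17 ± 0.30 with Compound 10 (adjusted p = 0.000382). The 0.60 ± 0.28 with Compound 10 in stimulated cells had an adjusted p of 0.15.

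Hif1a had 336, 358 and 282 CPM in stimulated Compound 10 cells, 615 and 628 in stimulated vehicle cells, 233 and 242 in unstimulated Compound 10 cells and 217, 210 and 171 in unstimulated vehicle cells. The stimulated vehicle libraries stood well above all others. Stimulation raised it 3.12-fold under vehicle (1.64 ± 0.15, adjusted p = 1.04e-05), while with Compound 10 the difference was 0.46 ± 0.16 (adjusted p = 0.0516). Of 21 alternatives, 7 called Hif1a higher with stimulation in Compound 10 cells, among them DESeq2 (adjusted p = 0.0374) and length offsets (0.0225). By library totals alone that difference was -0.13. In stimulated cells Compound 10 lowered Hif1a 1.91-fold (-0.93 ± 0.15, adjusted p = 0.00134), a call that held under every alternative run. The interaction was -1.18 ± 0.22 (adjusted p = 0.0104, and 0.0622 and 0.0611 without stimulated vehicle libraries 1 and 2). Its mRNA level does not measure the protein, which is controlled by degradation.

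The prolyl hydroxylase genes had low counts. Egln3, an inducible hydroxylase, had 1.88, 0.943 and 1.42 CPM in stimulated Compound 10 cells, 3.86 and 4.5 in stimulated vehicle cells, 3.9 and 3.46 in unstimulated Compound 10 cells and 0.986, 1.96 and 0.947 in unstimulated vehicle cells. It was the 1 member that stimulation moved in opposite directions, raising it under vehicle (1.69 ± 0.42, adjusted p = 0.00805) and lowering it with Compound 10 (-1.39 ± 0.43, adjusted p = 0.0335). Compound 10 lowered it in stimulated cells (-1.58 ± 0.44, adjusted p = 0.0231) and raised it in unstimulated cells (1.50 ± 0.41, adjusted p = 0.0469). The interaction was -3.08 ± 0.60 (adjusted p = 0.0137, and 0.059 and 0.0709 without stimulated vehicle libraries 1 and 2). Its other calls each ended without some single library. Stimulation under vehicle had 0.0628 without stimulated vehicle library 2. Stimulation with Compound 10 had 0.0501 to 0.11 without either unstimulated Compound 10 library, stimulated vehicle library 2 or stimulated Compound 10 library 2 or 3. Compound 10 in stimulated cells had 0.0535 to 0.133 without either stimulated vehicle library or stimulated Compound 10 library 2 or 3. In unstimulated cells the call was lost without any one of 9 libraries, all but unstimulated vehicle library 2 (0.0544 to 0.141).

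Egln1, the main oxygen sensor of the family, had 2.1, 3.43 and 5.31 CPM in stimulated Compound 10 cells, 3.22 and 2.25 in stimulated vehicle cells, 6.51 and 10.5 in unstimulated Compound 10 cells and 5.15, 5.31 and 4.82 in unstimulated vehicle cells. It was lower with stimulation in Compound 10 cells (-1.23 ± 0.37, adjusted p = 0.0288). The adjusted p was 0.238 without unstimulated Compound 10 library 2, and 0.0861 and 0.0833 without stimulated Compound 10 libraries 1 and 2. Under vehicle the difference was -0.91 ± 0.40 (adjusted p = 0.097).

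The remaining HIF targets moved in both directions. P4ha1, a collagen prolyl hydroxylase, had 300, 240 and 272 CPM in stimulated Compound 10 cells, 455 and 372 in stimulated vehicle cells, 142 and 118 in unstimulated Compound 10 cells and 137, 108 and 94.2 in unstimulated vehicle cells. It rose with stimulation by 1.87 ± 0.19 under vehicle (adjusted p = 1.6e-05) and 1.06 ± 0.19 with Compound 10 (adjusted p = 0.00216). Compound 10 lowered it in stimulated cells (-0.61 ± 0.19, adjusted p = 0.0338, and 0.274, 0.0718, 0.11 and 0.0696 without stimulated vehicle libraries 1 and 2 and stimulated Compound 10 libraries 2 and 3). Vegfa, the angiogenic growth factor, was low, at 4.42, 4.54 and 5.66 CPM in stimulated Compound 10 cells, 5.67 and 5.02 in stimulated vehicle cells, 2.62 and 3.04 in unstimulated Compound 10 cells and 0.657, 1.12 and 1.52 in unstimulated vehicle cells. The unstimulated vehicle libraries were the lowest. Stimulation raised Vegfa by 2.25 ± 0.37 under vehicle (adjusted p = 0.000546; 3.18 with length offsets), and Compound 10 raised it in unstimulated cells by 1.34 ± 0.36 (adjusted p = 0.0433). That second call was lost without any one of 9 libraries, all but unstimulated vehicle library 3, with adjusted p from 0.0523 to 0.197.

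Bnip3 and Bnip3l, mitophagy receptors that HIF induces under low oxygen, were lower with stimulation. Bnip3 had 12.7, 10.2 and 12.8 CPM in stimulated Compound 10 cells, 10.9 and 13.9 in stimulated vehicle cells, 21.1 and 26.2 in unstimulated Compound 10 cells and 26.3, 27.1 and 38.8 in unstimulated vehicle cells. Stimulation lowered it by -1.30 ± 0.24 under vehicle (adjusted p = 0.0013) and -0.99 ± 0.23 with Compound 10 (adjusted p = 0.00768, and 0.0643 without unstimulated Compound 10 library 2), and Compound 10 did not change it past the threshold. Bnip3l had 245, 202 and 230 CPM in stimulated Compound 10 cells, 140 and 144 in stimulated vehicle cells, 308 and 356 in unstimulated Compound 10 cells and 322, 281 and 296 in unstimulated vehicle cells. Stimulation lowered it by -1.08 ± 0.15 under vehicle (adjusted p = 0.000186) and -0.56 ± 0.14 with Compound 10 (adjusted p = 0.0138, and 0.111 and 0.0552 without unstimulated Compound 10 library 2 and stimulated Compound 10 library 2). Compound 10 raised it in stimulated cells by 0.67 ± 0.15 (adjusted p = 0.00709, and 0.081 and 0.0576 without stimulated vehicle libraries 1 and 2). A pseudogene copy took 6.44% to 14.6% of its summed counts.

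The names of the deposited tables carry sample index numbers, which the labels do not explain. They were grouped into 3 runs at gaps in the numbers. Stimulated Compound 10 library 3 (number 29) was kept with 25 and 26 despite an equal gap. Run 3 of stimulation with Compound 10 rests on that choice. Between libraries of the same run, all called members kept their sign in both runs that held both groups (23, 16, 16 and 6 members for stimulation under vehicle, stimulation with Compound 10, and Compound 10 in stimulated and unstimulated cells). The groups did not overlap for any called member, so any choice of library pairs would give these signs. The signs therefore say nothing about the runs. Some calls ended under other alternatives than a left-out library. For Compound 10 in stimulated cells these were Gapdh and P4ha1 with upper-quartile factors (adjusted p = 0.0633 and 0.0752), P4ha1 and Slc2a1 by library totals alone (0.068 and 0.0568), Slc2a1 with no low count filter (0.0822), Pfkfb3 with length offsets (0.0969) and Egln3 with the replicate block (0.0545). For Compound 10 in unstimulated cells, Hk2 was the 1 member called when only these groups were fitted, and Pfkfb4, Slc16a1, Egln3, Vegfa and Pdk2 had adjusted p of 0.0632, 0.117, 0.119, 0.156 and 0.0705. By library totals alone, stimulation with Compound 10 lost Aldoa, Gpi1, P4ha1, Pkm, Slc16a1 and Slc2a1 (0.851, 0.211, 0.0643, 0.284, 0.0994 and 0.107), and stimulation under vehicle lost Pgk1, Slc16a3 and Egln3 (0.227, 0.0849 and 0.0953). Without the 2 deepest unstimulated libraries, stimulation with Compound 10 lost Egln1 and Bnip3l (0.183 and 0.0566), stimulation under vehicle lost Tpi1 (0.0764), and the interaction of Pfkfb3 had 0.0528.

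Genes around the module, in 6 further lists, give its setting. The share of all genes called in the same comparison stands in brackets beside each count. Among other HIF pathway components, 1 of 15 tested was higher and 2 lower with Compound 10 in stimulated cells (23.2% of all genes called), and 2 were higher and 1 lower in unstimulated cells (8.43%). The 1 lower was Cul2 (-0.78 ± 0.19, adjusted p = 0.0319), a call lost without any one of 8 libraries, all but stimulated Compound 10 libraries 1 and 3 (adjusted p 0.0503 to 0.195). The partner of HIF-1α, Arnt, was higher with Compound 10 in both states (2.00 ± 0.22, adjusted p = 0.000141, stimulated; 1.92 ± 0.20, adjusted p = 0.000414, unstimulated), and stimulation lowered it under vehicle (-1.11 ± 0.21, adjusted p = 0.0016). The ubiquitin ligase subunits Rbx1 (-1.76 ± 0.28, adjusted p = 0.00117) and Cul2 (-1.13 ± 0.19, adjusted p = 0.00169), which serve the degradation of HIF-1α, were lower with Compound 10 in stimulated cells. Epas1, which encodes HIF-2α, was higher with it in unstimulated cells (1.39 ± 0.26, adjusted p = 0.0111, and 0.0529 without unstimulated Compound 10 library 1). Stimulation under vehicle raised 3 and lowered 4 of these 15 (39% of all genes), and with Compound 10 it raised 2 and lowered 5 (26.5%), where Vhl, the HIF ubiquitin ligase adaptor, was at -1.40 ± 0.15 (adjusted p = 6.92e-05).

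Of 27 other hypoxia response genes tested, Compound 10 raised 6 and lowered 4 in stimulated cells (23.2% of all genes called) and raised 6 and lowered 1 in unstimulated cells (8.43%). The smallest adjusted p in stimulated cells belonged to Kdm4c, a histone demethylase (1.35 ± 0.20, adjusted p = 0.000809), Ddit4, an inhibitor of mTORC1 (1.20 ± 0.25, adjusted p = 0.00526), and Wsb1 (-0.68 ± 0.15, adjusted p = 0.00738). In unstimulated cells they belonged to Gbe1, the glycogen branching enzyme (-1.47 ± 0.20, adjusted p = 0.00218), Rora (0.96 ± 0.14, adjusted p = 0.00337) and Nfil3 (1.35 ± 0.22, adjusted p = 0.00579). Stimulation raised 12 and lowered 2 under vehicle (39% of all genes), led by Tfrc, the transferrin receptor (3.58 ± 0.25), and raised 9 with Compound 10 (12.8% of all genes called higher). For Compound 10 in stimulated cells, Ddit4 and Wsb1 had adjusted p of 0.075 and 0.0579 without stimulated vehicle library 1, and Wsb1 had 0.0621 without library 2.

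Of 17 other glycolytic and glucose transport genes tested, Compound 10 raised 3 and lowered 3 in stimulated cells (23.2% of all genes called). Bpgm, which diverts the pathway to 2,3-bisphosphoglycerate, was higher (1.47 ± 0.21, adjusted p = 0.000601), as was the glucose transporter Slc2a8 (1.26 ± 0.24, adjusted p = 0.00279), and Minpp1 was lower (-1.02 ± 0.21, adjusted p = 0.00453). Stimulation under vehicle raised 3 and lowered 4 (39% of all genes), with Eno2, the neuronal enolase, 3.52 ± 0.34 higher (adjusted p = 1.44e-05). In the pentose phosphate pathway, which branches from glucose 6-phosphate, stimulation under vehicle raised 6 of 10 genes and lowered 1 (4 of the 6, Pgd, Rpia, Rpe and Prps1, were below 0 by library totals alone; 39% of all genes were called), and Compound 10 in stimulated cells raised 1 and lowered 2 (23.2%), among them the entry enzyme G6pdx (-0.66 ± 0.15, adjusted p = 0.00805, and 0.0841 and 0.0532 without stimulated vehicle libraries 1 and 2). Among 10 genes of pyruvate entry into mitochondria (23.2% of all genes called), Compound 10 in stimulated cells raised Pdhb (0.55 ± 0.15, adjusted p = 0.0197) and lowered Dld (-0.58 ± 0.14, adjusted p = 0.0124), both parts of the pyruvate dehydrogenase complex. The adjusted p of Pdhb and Dld rose to 0.0531 to 0.148 without either stimulated vehicle library, and for Pdhb also without stimulated Compound 10 library 3.

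Of 22 regulators of glycolytic genes tested, stimulation under vehicle raised 8 and lowered 5 (39% of all genes called), led by Myc (6.32 ± 0.18, adjusted p = 6.26e-09) and Irf4 (6.92 ± 0.37, adjusted p = 1.66e-07). With Compound 10, stimulation raised 5 and lowered 4 (26.5%), with Myc at 6.03 ± 0.20 and Irf4 at 6.05 ± 0.42. Compound 10 in stimulated cells raised 4 and lowered 3 (23.2%). The raised ones included Mxd1, a Max-binding opponent of Myc (1.12 ± 0.17, adjusted p = 0.000737), and Max (1.31 ± 0.25, adjusted p = 0.00326) (0.0526 without stimulated vehicle library 1).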

How the data were processed

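RNA was sequenced from 10 libraries made with a SMART-seq kit, per the labels' protocols. The authors trimmed reads with cutadapt and quantified transcripts with kallisto on mm10, per the submitters' processing notes (the versions are not stated in the sources used here). The deposited tables give estimated counts and TPM (counts corrected for transcript length and scaled to a fixed sum per library) per transcript, per the file headers. Counts were summed per gene through the GENCODE M21 transcript table and rounded, which matched 108214 of 109617 transcripts; the other 1403 held 0.507% to 0.671% of counts and stayed out. This kit does not mark strand, so antisense reads cannot be told apart.

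The members and all lists were chosen with earlier results of these data known. One edgeR 4.0.16 quasi-likelihood fit (R 4.3.3, limma 3.58.1) covered all 10 libraries with 1 coefficient per group, TMM factors (0.731 to 0.850 for stimulated libraries, 1.199 to 1.343 for the rest) and edgeR's filter by group, and p-values were adjusted over 14417 genes by the Benjamini-Hochberg method. A call is an adjusted p under 0.05, and an SE is the log2 fold change over the root of its F statistic. The comparisons share groups. Levels are TMM-scaled CPM (counts scaled to library size). Scripts were tested on simulated data. There, 17% to 24% of 2-fold and 61% to 74% of 4-fold changes were recovered in the 4 comparisons of groups. For the interaction these shares were 4% and 43%. False calls were 4 of 94 for stimulation under vehicle and 9 of 95 for Compound 10 in unstimulated cells. A gene without a call is thus not shown to be unchanged. Members called with a log2 change of at least 1 are given in full, and up to 3 genes with the smallest adjusted p per further list and comparison were open to naming. Near-identical copies were found by BLAST 2.17.0 (at least 90% identity over 200 bases). The labels do not say that replicate numbers pair libraries, so the numbers were not used as pairs. Deviations of same-numbered libraries had r from -0.28 to 0.33 over 13 pairs. In a group of 2 libraries the deviations mirror each other, so these r cannot decide on pairing. Over the 8 pairs within groups, chi-square per degree of freedom was 13.7 or more, so no library repeated another. The 21 alternatives, 2 of them chosen after seeing the data, included DESeq2 1.42.0, and the further lists were put through them after seeing the data. Total counts of 10694591 to 33486259 per library set the precision of low genes.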

Additional observations from a re-analysis of the deposited data

Results flagged for a closer look

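These genes are listed because the test of the difference itself, the interaction of stimulation with Compound 10 in edgeR's fit, passed an adjusted p under 0.05. Values are the log2 effect of stimulation with Compound 10 minus that under vehicle. Among the members they were Pgam1 (-1.34), Hif1a (-1.18), Pfkfb3 (-1.26), Egln3 (-3.08) and Pdk2 (3.12), whose values in every library stand above. Alternatives that ended the calls of Pfkfb3, Hif1a and Egln3 are given there.

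Among the further lists they were Kdm4c, Tfrc, Wsb1 and Ak4. Kdm4c had 1.85 (adjusted p = 0.00407): its levels were 32.8, 28.6 and 28.9 TMM-scaled CPM in stimulated Compound 10, 10 and 13.4 in stimulated vehicle, 27.2 and 24.1 in unstimulated Compound 10 and 40.1, 37.3 and 31.1 in unstimulated vehicle cells. Tfrc had -1.46 (adjusted p = 0.029), lost without any one of 6 libraries (0.05 to 0.137). Wsb1 had -0.81 (adjusted p = 0.0479), lost without any one of 9 libraries, all but stimulated Compound 10 library 2 (0.0516 to 0.167). Ak4 had -4.69 (adjusted p = 0.0382), lost without any one of 7 libraries (0.0702 to 0.159). Its counts were 7, 17 and 27 in stimulated Compound 10, 13 and 10 in stimulated vehicle, 10 and 55 in unstimulated Compound 10 and 0, 0 and 2 in unstimulated vehicle libraries, so its fitted value depends on the prior count.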

How the results depend on the processing

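Counts of called members held within 1.5 times for stimulation under vehicle (23; 20 to 23 when a library was left out) and with Compound 10 (16; 11 to 19). For Compound 10 in stimulated cells the count was 16, and 6 to 18 when a library was left out (a group left with 1 library is assumed to vary like the others). For Compound 10 in unstimulated cells it was 6, against 3 by library totals alone, 1 with only the groups of the contrast, 3 without the 2 deepest unstimulated libraries together, and 2 to 4 when a library was left out. The interaction count of 5 became 9 with DESeq2, 8 with no low count filter, 13 with the sample index run as a term and 2 to 7 when a library was left out. With the replicate number as a block it was 8, and the block gave 23, 18, 18 and 6 for the other comparisons in the order above. The labels do not say whether the numbers pair the libraries. By library totals alone, stimulation under vehicle turned to -0.01 for Hk1, -0.05 for Gpi1, -0.60 for Pfkl, -0.61 for Pfkp, -0.16 for Tpi1, -0.69 for Ldhb, -0.67 for Pdk3, -0.10 for Pgd, -0.12 for Rpia and Rpe, -0.27 for Prps1 and -0.31 for Mxd1. Stimulation with Compound 10 turned to -0.56 for Pfkp, -0.01 for Rpia, -0.15 for Rora and -0.00 for G6pdx. That setting leaves out the TMM factors, which moved the median of all genes as given above; other causes were not tested. Over 165 member values and 3432 alternative values, 3207 kept their call or lack of one, and 127 lost and 90 gained a call. Another 8 turned round with a call in the main or the alternative fit. Values called in neither fit could change sign and still count among the 3207. Aldoc did so for stimulation under vehicle (0.12, with alternatives from -0.65 to 0.69). The turns of members listed above leave such values out. Counts limit Ak4, Egln1, Egln3, Vegfa and Pdk2. Levels on other scales carry no test.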
